A study of Mus musculus with 2 samples.

Results

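The neuregulins and their receptors form a family of 6 genes among the 32285 genes counted here: the ligand genes Nrg1, Nrg2 and Nrg3 and the receptor tyrosine kinase genes Erbb2, Erbb3 and Erbb4. The 6 were taken by gene symbol, with earlier results of these data known, and all are given whatever their values. They were followed across the cell classes of the embryonic mouse dorsal telencephalon at E14.5. Single cells of the dissociated tissue had been sequenced in droplets, and the labels assign the embryos to controls of the EomesDot line and to 1 group (WT), with 2 libraries named here replicate 2 and replicate 4. The study also describes C57BL/6J embryos, and how both names relate is not stated in the sources used here. It asked which ligands and receptors could carry signals from somatostatin-expressing (SST+) cortical interneurons to radial glial cells (RGCs) and intermediate progenitor cells (IPCs). With a single group, the comparisons are those between cell classes within the same libraries.

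Neuregulins carry an EGF-like domain, and many are made as membrane-bound precursors from which proteases release the active ligand. ERBB3 and ERBB4 bind neuregulins, ERBB2 binds no known ligand and acts as the partner in receptor dimers, and ERBB3 has little kinase activity of its own. In the developing forebrain NRG1 and ERBB4 are known for guiding interneurons from the ganglionic eminences into the cortex and, in radial glia, for maintaining their elongated form. NRG3 is a neuronal ligand of ERBB4.

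In mm10, the build named in the submitters' processing notes, Nrg1 (ENSMUSG00000062991) lies on chromosome 8 from 31807452 to 32891609, Nrg3 (ENSMUSG00000041014) on chromosome 14 from 38365102 to 39473235 and Erbb4 (ENSMUSG00000062209) on chromosome 1 from 68031884 to 69108576. These spans of 1084, 1108 and 1077 kb contrast with 183 kb for Nrg2 (ENSMUSG00000060275, chromosome 18), 25.2 kb for Erbb2 (ENSMUSG00000062312, chromosome 11) and 22.1 kb for Erbb3 (ENSMUSG00000018166, chromosome 10). The counting software includes intronic reads by default, and whether that was changed is not stated. Levels are therefore compared between classes for 1 gene at a time, never between genes.

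Replicate 2 held 1712 cell barcodes with 40267872 UMIs and replicate 4 held 2589 with 49422007. Each UMI, a random tag attached at capture, stands for 1 transcript. After filtering, 1199 and 1923 cells remained, with medians of 30810 and 22826 UMIs per cell, and 1 retained barcode sequence occurred in both libraries. Cells were grouped into 25 clusters without using the 6 genes, and clusters were named after marker lists. All 10 RGC markers were raised in both RGC-like clusters, 8 or 9 of 9 IPC markers in both IPC-like clusters, 7 to 11 of 13 excitatory neuron markers in the excitatory clusters, and 5 and 7 of 8 markers in the clusters of interneurons from the medial ganglionic eminence (MGE). The main classes held 207 and 361 RGC-like, 155 and 220 IPC-like, 429 and 601 excitatory neuron-like and 54 and 81 MGE interneuron-like cells in replicates 2 and 4. A further 161 and 313 cells had raised markers of both IPCs and excitatory neurons and are called transitional below. Their 2 clusters had 9 and 8 of 13 excitatory neuron markers raised. The IPC-like clusters also had 4 and 6 of these raised, and 7 and 4 of 10 RGC markers. Striatal projection neuron-like cells were nearly all from replicate 4 (65 against 1), as were GABAergic cells without a sub-class (58 against 6). One IPC-like cluster, with 54 and 98 cells, was led by Apoe and by cell-cycle genes such as Mki67 and Top2a, and 12 and 22 of its cells held at least 5 UMIs over 25 microglial, mural, endothelial and meningeal markers. Fold changes between the main classes that such cells moved by over 1.5 times are given with and without them.

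Levels are UMIs of a gene per 1000000 UMIs (CPM) of the summed cells of a class in a library, and a mean ± SD is over the 2 libraries. Across the 3122 retained cells, Nrg1 had 266899 UMIs in 2637 cells, Nrg3 94691 in 1673, Erbb4 62119 in 486, Nrg2 1017 in 384, Erbb2 195 in 160 and Erbb3 43 in 13. Erbb4 lay mostly in interneurons, with 70.0% of its UMIs in MGE interneuron-like cells (4.32% of cells) and 15.7% in interneuron-like cells of the caudal ganglionic eminence (CGE). Of the Nrg3 UMIs, 79.6% were in excitatory neuron-like cells (33.0% of cells). RGC-like cells held 69.7% of the Erbb2 UMIs and were 18.2% of cells. Nrg1 was spread over excitatory neuron-like (30.1%), transitional (25.5%), IPC-like (23.8%) and RGC-like cells (17.3%).

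**Figure D1:**
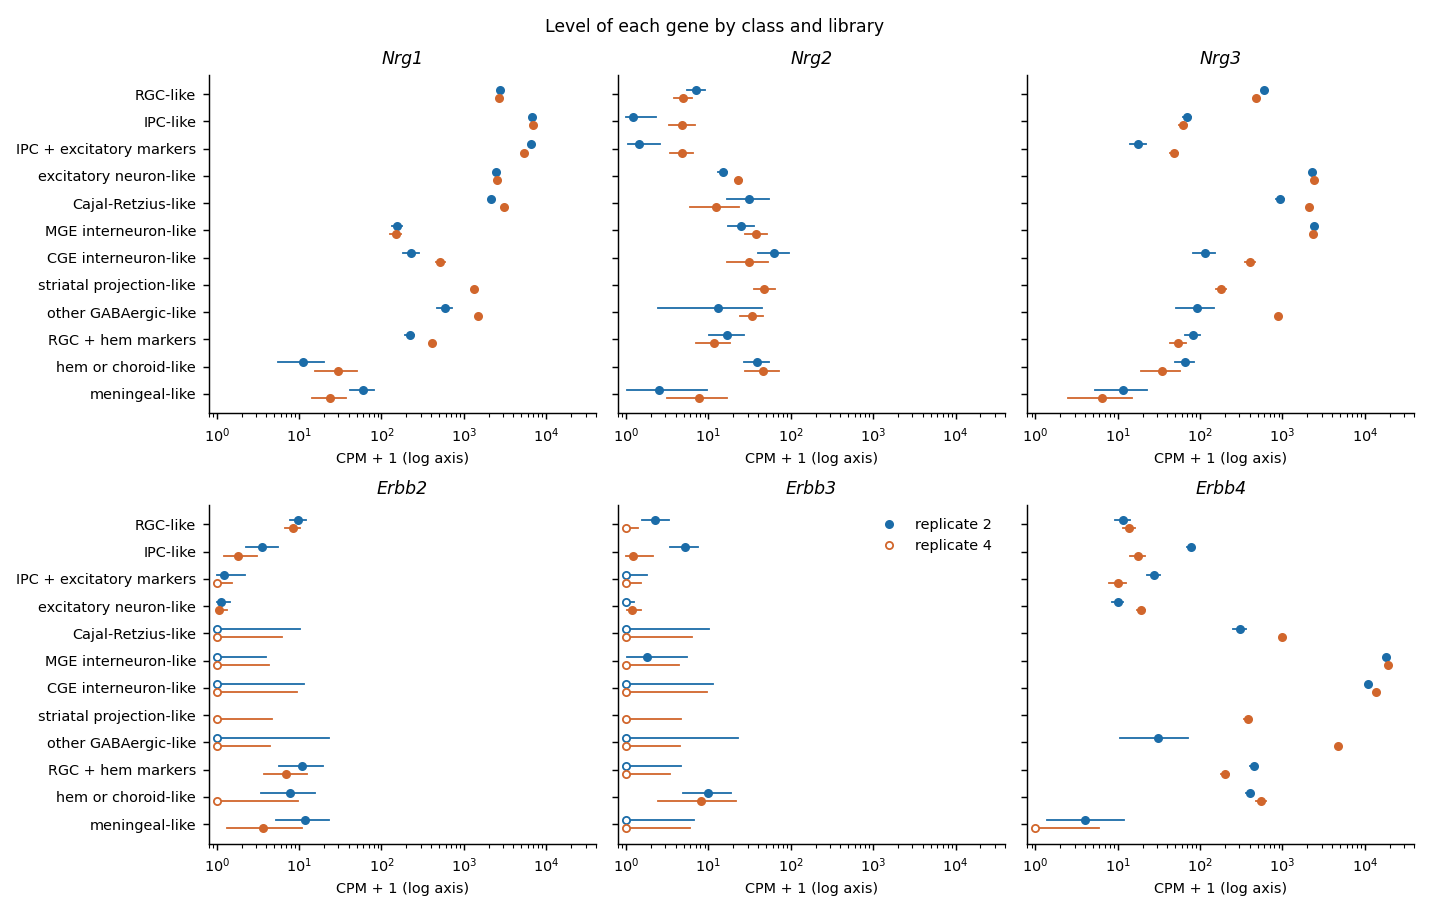
Level of each of the 6 genes (CPM + 1 on a log axis) in 12 cell classes of replicates 2 and 4, with 95% Poisson intervals for counting error only and open points for classes without a UMI. Erbb4 is at 18017 and 19116 CPM in MGE interneuron-like cells and at 9.05 to 75.8 CPM in the RGC-like, IPC-like and excitatory classes, whereas Nrg1 is highest in IPC-like and transitional cells.

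Nrg1, the ligand whose secreted and membrane-bound forms attract migrating interneurons, was highest in IPC-like cells. There it stood at 6737 CPM in replicate 2 and 6821 in replicate 4 (6779 ± 59.0). Transitional cells followed at 6515 and 5432 CPM. RGC-like cells were at 2749 and 2678 CPM (2713.5 ± 50.1), excitatory neuron-like cells at 2475 and 2521 (2498 ± 32.4), and Cajal-Retzius-like cells, early marginal zone neurons that make reelin, at 2137 and 3043. RGC-like cells were above excitatory neuron-like cells in both libraries, and the range of Cajal-Retzius-like cells covered both, so the place of the latter class is not set beyond its spread. MGE interneuron-like cells had 153 and 147 CPM (149.8 ± 3.88), CGE interneuron-like cells 230 and 519, and RGC-like cells with markers of the cortical hem or choroid plexus 218 and 415. Nrg1 was lowest in hem or choroid plexus-like cells (10.1 and 28.4 CPM) and meningeal-like cells (57.9 and 22.8 CPM). Because cells with more UMIs show a gene more often, shares were also taken after thinning each cell to 5000 UMIs. A Nrg1 UMI was then present in 94.1% and 92.3% of RGC-like and 86.6% and 85.1% of IPC-like cells. In MGE interneuron-like cells the shares were 28.3% and 18.9%, against 6.25% and 3.57% in meningeal-like cells, the class used as background. Median depths were 32965 and 25870 UMIs in RGC-like, 23450.5 and 11132 in MGE interneuron-like and 39554.5 and 26695 in meningeal-like cells.

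Within the excitatory lineage, Nrg1 differed between clusters more than between classes. The IPC-like cluster led by Eomes and Neurog2, transcription factors of basal progenitors, reached 8258 and 9411 CPM. A transitional cluster led by Unc5d, Slc17a6 and Neurod1 had 7967 and 6612 CPM, and the excitatory cluster led by Adamtsl3 had 6366 and 6404 CPM. These levels fell away in the other excitatory clusters. The cluster led by Lrfn5 and Kcnq3 had 1279 and 1354 CPM, and the one led by Rgs6 had 354 and 549 CPM. In the Apoe-led IPC-like cluster Nrg1 was at 2847 and 3936 CPM, and at 3419 and 5109 CPM without the 12 and 22 cells with non-neural marker UMIs.

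Nrg3 was highest in MGE interneuron-like and excitatory neuron-like cells. MGE interneuron-like cells had 2412 and 2340 CPM (2376 ± 50.6) and excitatory neuron-like cells 2270 and 2416 (2343 ± 103), and both ranges overlapped. Cajal-Retzius-like cells were at 934 and 2094 CPM. RGC-like cells had 592 and 474 CPM (533 ± 83.1), CGE interneuron-like cells 112 and 403, IPC-like cells 68.7 and 61.7 (65.2 ± 4.93) and transitional cells 16.8 and 47.4. Nrg3 was thus lower in IPC-like and transitional cells than in either RGC-like or excitatory neuron-like cells in both libraries. After thinning, 56.9% and 54.0% of RGC-like but 11.97% and 11.94% of IPC-like cells had a Nrg3 UMI, and 0 of 16 and 0 of 28 meningeal-like cells. The RGC-like cluster with raised division genes (Top2a, Mki67) had 794 and 596 CPM and the other RGC-like cluster 368 and 317 CPM.

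The cluster order of Nrg3 in the excitatory lineage ran opposite to that of Nrg1. The Rgs6-led cluster had 4578 and 4724 CPM of Nrg3, the Lrfn5-led cluster 2708 and 2442, and the Adamtsl3-led cluster 332 and 348. Over the 9 IPC-like, transitional and excitatory clusters, Spearman's rho between both ligands was -0.75 in replicate 2 and -0.783 in replicate 4, a description over clusters that share libraries and come in unequal depths.

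**Figure D2:**
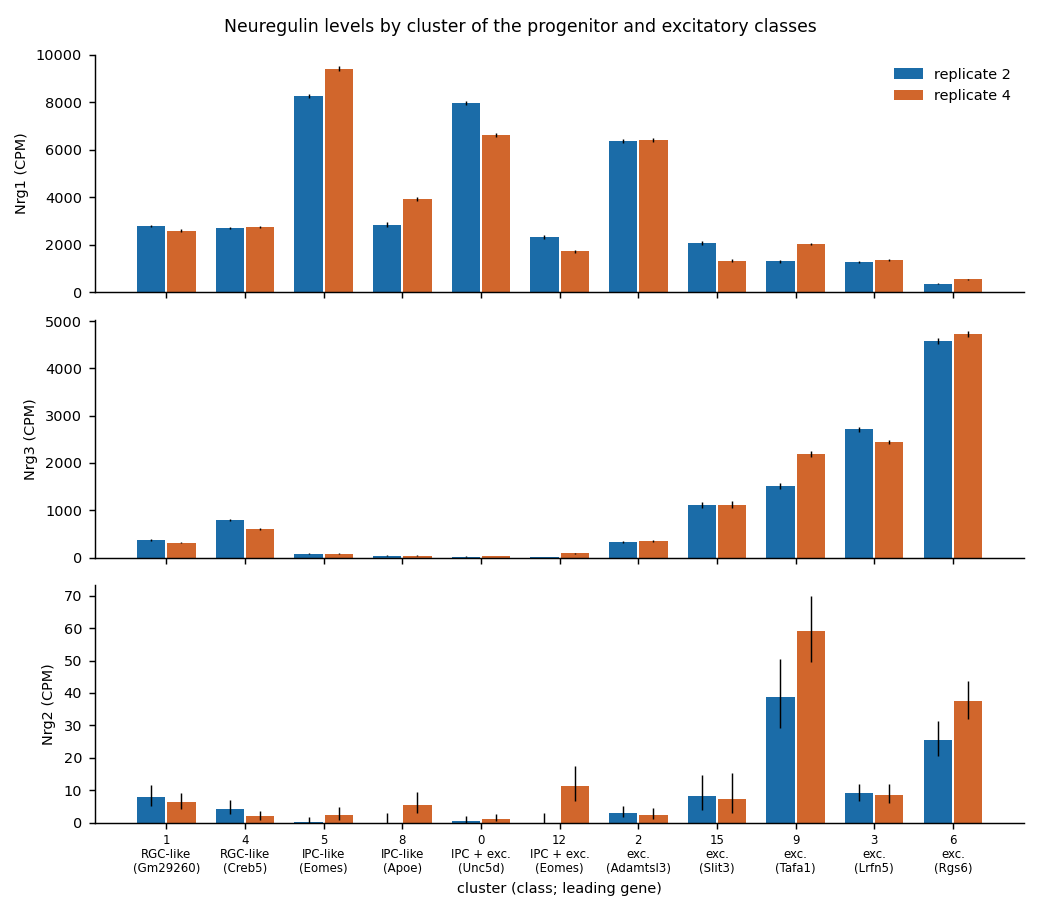
Levels of Nrg1, Nrg3 and Nrg2 (CPM, bars from 0) in the RGC-like, IPC-like, transitional (IPC + exc.) and excitatory (exc.) clusters, each named by its leading gene, for replicates 2 and 4, with 95% Poisson intervals for counting error only. Nrg1 is highest in the Eomes-led IPC-like cluster (8258 and 9411 CPM) and Nrg3 in the Rgs6-led excitatory cluster (4578 and 4724 CPM), where Nrg1 is lowest.

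Nrg2 was sparse. It was at 24.1 and 37.2 CPM in MGE interneuron-like, 61.7 and 30.1 in CGE interneuron-like, 38.0 and 45.0 in hem or choroid plexus-like and 13.8 and 22.0 in excitatory neuron-like cells. RGC-like cells had 6.11 and 3.91 CPM and IPC-like cells 0.230 and 3.78 CPM, the latter from 1 and 19 UMIs. Of those 19 UMIs, 10 were in cells with non-neural marker UMIs. The share of thinned cells with a Nrg2 UMI was 1.98% and 1.42% in RGC-like cells 5.88% and 7.35% in excitatory neuron-like, 9.43% and 12.2% in MGE interneuron-like and 6.25% and 10.7% (1 of 16 and 3 of 28 cells) in meningeal-like cells. The RGC-like and excitatory neuron-like shares did not exceed the meningeal-like ones and are read as background, and the MGE interneuron-like shares were little above them. By CPM, meningeal-like cells were at 1.52 and 6.71, below both libraries of the excitatory neuron-like and MGE interneuron-like classes but not of the RGC-like class, so Nrg2 differences between classes rest on the summed counts and not on the share of cells. Among excitatory clusters Nrg2 was highest in the Tafa1-led cluster (38.8 and 59.0 CPM) and the Rgs6-led cluster (25.6 and 37.5 CPM), and 2.41 to 9.16 CPM in the other 3 clusters.

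Erbb4, the neuregulin receptor of tangentially migrating interneurons, was highest in MGE and CGE interneuron-like cells. MGE interneuron-like cells held 22439 UMIs in replicate 2 and 21056 in replicate 4, which gave 18017 and 19116 CPM (18566 ± 777). All 54 and all 81 of these cells had an Erbb4 UMI, also after thinning. CGE interneuron-like cells followed at 10921 and 13617 CPM, below MGE interneuron-like cells in both libraries, and 90.5% and 82.9% of them had a UMI after thinning. The MGE cluster led by Sst and Npy had 16448 and 17334 CPM of Erbb4 and 3138 and 3701 CPM of Nrg3. The other MGE cluster, led by Nxph1 with Maf among its leading genes, had 20174 and 21189 CPM of Erbb4 and 1413 and 756 CPM of Nrg3. Among MGE interneuron-like cells, the cluster with less Erbb4 was thus the one with more Nrg3 in each library.

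GABAergic cells without a sub-class differed between the libraries, at 4736 CPM in replicate 4 (5055 UMIs in 33 of 58 cells) and 29.9 CPM in replicate 2 (5 UMIs in 1 of 6 cells), and held 8.15% of all Erbb4 UMIs. They joined a sub-cluster led by Sst, with 23 cells of replicate 4 alone at 12116 CPM, and a sub-cluster of both libraries at 547 ± 732 CPM. In the other classes Erbb4 was lower and mostly rested on fewer cells. Hem or choroid plexus-like cells had 398 and 549 CPM, with UMIs in 17 of 19 and 9 of 9 cells. RGC-like cells with hem or choroid plexus markers were at 446 and 202 CPM, with UMIs in 15 of 34 and 17 of 61 cells. Cajal-Retzius-like cells were at 305 and 994 CPM, with UMIs in 9 of 15 and 12 of 23 cells (46.2% and 42.9% after thinning). Of their 121 UMIs in replicate 2, 53 were in 1 cell without GABAergic marker UMIs, and of 699 in replicate 4, 428 came from 1 cell, which also held 67 UMIs of the GABAergic marker list. Without the 2 highest cells of each library the class was at 151 and 277 CPM. Striatal projection neuron-like cells of replicate 4 had 379 UMIs, of which 342 were in 1 cell. RGC-like cells had 10.6 and 12.7 CPM, excitatory neuron-like cells 9.05 and 18.0, transitional cells 26.3 and 9.03 and IPC-like cells 75.8 and 16.5. Of the excitatory neuron-like UMIs, 99 of 144 in replicate 2 and 131 of 293 in replicate 4 were in single cells of the Tafa1-led cluster.

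After thinning, Erbb4 UMIs were present in 3.47% and 4.26% of RGC-like, 2.82% and 4.48% of IPC-like and 1.65% and 3.08% of excitatory neuron-like cells, and in 0 of 16 and 0 of 28 meningeal-like cells. Without thinning, 2 of 16 and 0 of 30 meningeal-like cells had a UMI, with upper 95% Clopper-Pearson bounds of 38.3% and 11.6%, so these low shares cannot be told from background at this number of cells.

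**Figure D3:**
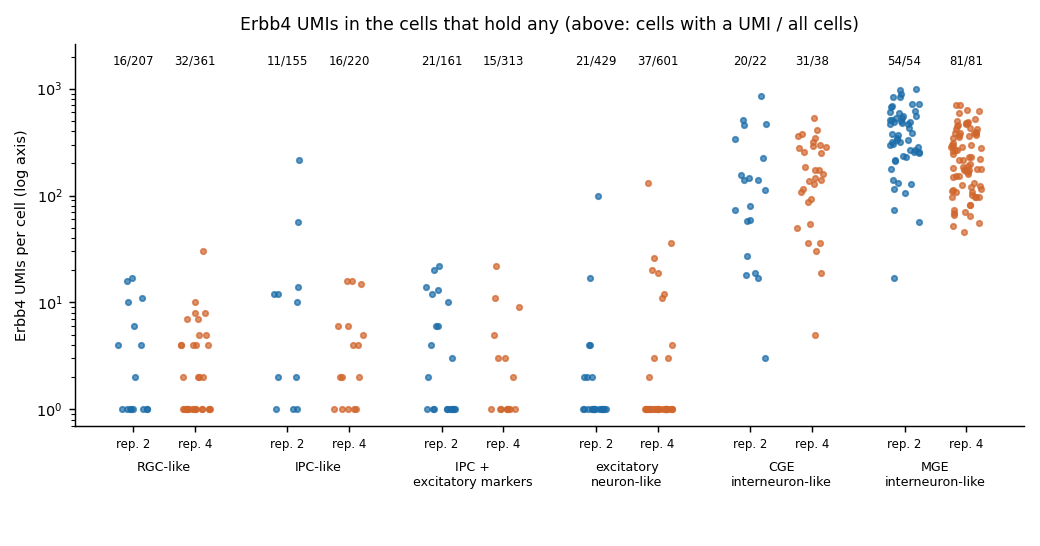
Erbb4 UMIs per cell (log axis) in the cells that hold any, by class and library, with the number of cells holding a UMI over all cells of the class written above. All 54 and 81 MGE interneuron-like cells hold Erbb4, while in IPC-like cells of replicate 2 a pair of cells with 217 and 57 UMIs stands far above the rest.

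Erbb2, the receptor partner without a ligand of its own, had most of its UMIs in RGC-like cells. RGC-like cells had 64 and 72 UMIs, or 8.69 and 7.42 CPM (8.05 ± 0.900), spread over 49 of 207 and 61 of 361 cells with at most 4 UMIs in any. RGC-like cells with hem or choroid plexus markers were at 9.93 and 6.004 CPM and both RGC-like clusters at 7.30 to 8.79 CPM. IPC-like cells had 11 and 4 UMIs (2.53 and 0.796 CPM), excitatory neuron-like cells 2 and 1 UMIs, and meningeal-like cells 7 and 2 UMIs, which in so few cells gave 10.7 and 2.68 CPM, a range that covers that of RGC-like cells. No Erbb2 UMI was found in MGE interneuron-like cells, which allows up to 1.28 CPM (3 counts over the class in both libraries). After thinning, 4.95% and 3.98% of RGC-like, 6.25% and 3.57% of meningeal-like and 0 of 425 and 0 of 585 excitatory neuron-like cells had a UMI. The RGC-like share was below the meningeal-like one in replicate 2 and little above it in replicate 4, and since the meningeal-like share comes from 1 cell in each library, the classes cannot be told apart by it. Both excitatory neuron-like shares were at 0.

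Erbb3, the receptor of the Schwann cell lineage, was close to absent at this depth. Its 43 UMIs lay in 13 cells, and 0 were found in CGE interneuron-like, Cajal-Retzius-like, transitional or meningeal-like cells. Hem or choroid plexus-like cells had 8 and 3 UMIs in 4 of 19 and 2 of 9 cells. RGC-like cells had 9 and 0 UMIs, of which 8 were in 1 cell that also held 24 UMIs of Sox10 and 11 of Foxd3, genes of Schwann cells and the neural crest. IPC-like cells had 18 and 1 UMIs, with 14 and 4 in the same pair of cells of replicate 2 that carried most of the Erbb4 UMIs of that class.

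Both libraries were closest for Nrg1 in the progenitors. As log2 ratios of replicate 4 to replicate 2, with 10 CPM added, Nrg1 differed by -0.04 in RGC-like and 0.02 in IPC-like cells, Erbb2 by -0.10 and -0.22, Nrg2 by -0.21 and 0.43, Nrg3 by -0.31 and -0.13 and Erbb3 by -0.17 and -0.47. Erbb4 in RGC-like cells differed by 0.14. The median size of this ratio over 13890 genes was 0.083 in RGC-like and 0.12 in IPC-like cells. Only the Nrg1 pairs lay below that median. For Nrg2, Erbb2 and Erbb3, which were under 10 CPM in both progenitor classes, the added 10 CPM keeps the ratio small whatever the counts, so it says little about their agreement. Nrg3 in RGC-like cells was further apart than most genes, since 4.82% of genes differed as much. Of the 12 pairs of a gene and a progenitor class, 1 differed by more than 1 on this scale, Erbb4 in IPC-like cells at -1.69, where 32 of the 13890 genes (0.230%) differed as much.

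That difference came from 2 cells. Erbb4 had 329 UMIs in IPC-like cells of replicate 2, and 217 and 57 of them were in single cells of the Eomes-led cluster. Both cells had 0 UMIs of the GABAergic marker list and 0 of Eomes, and they held 12 and 18 UMIs of the non-neural markers (12 meningeal in the first, 12 endothelial and 5 meningeal in the second). Without the 2 highest cells of each library, Erbb4 in IPC-like cells was at 13.0 and 10.2 CPM. When all cells with at least 5 non-neural marker UMIs were left out, an alternative chosen after seeing the data, it was at 13.5 and 15.9 CPM (log2 ratio 0.14) and none of the 12 pairs differed by more than 1.

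Erbb4 in RGC-like cells depended on how cells and classes were chosen. Both libraries were close at 10.6 and 12.7 CPM, and at 6.17 and 8.62 CPM without the 2 highest cells of each. With predicted doublets kept, the clusters changed and the RGC-like class held 78 and 159 cells, with 8.40 and 120.6 CPM (log2 ratio 2.83). Then 5 predicted doublets held 565 of the 652 Erbb4 UMIs of the class in replicate 4, together with 98 UMIs of GABAergic markers. When a random part of the UMIs made the classes and the rest was counted, the class held 257 and 435 cells with 60.0 and 39.3 CPM.

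**Figure D4:**
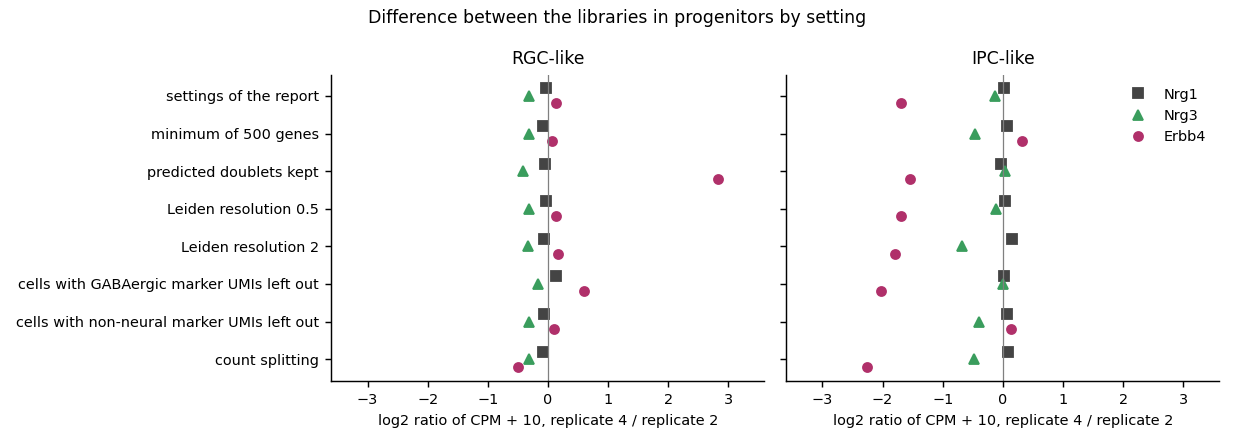
Log2 ratio of replicate 4 to replicate 2 (CPM + 10) of Nrg1, Nrg3 and Erbb4 in RGC-like and IPC-like cells under the settings of the report and each alternative. Nrg1 stays near 0 in both classes, whereas Erbb4 moves from 0.14 to 2.83 in RGC-like cells with doublets kept and from -1.69 to 0.14 in IPC-like cells without cells holding non-neural marker UMIs.

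The classes were then compared by edgeR's quasi-likelihood test on UMI sums per library and class, with Benjamini-Hochberg adjustment over 13890 genes and a call at an adjusted p under 0.05. Adjusted p-values below are from this fit unless an alternative is named, and the contrast by Sst UMIs has a fit of its own. Errors of log2 fold changes are standard errors, and n is 2 libraries per class. The labels number the libraries separately and the study describes several embryos at this stage, with each sample loaded on its own, but no source states which embryo or embryos gave which library. The tests measure the spread between these libraries, which may be technical. Erbb3 had too few UMIs to be tested.

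Between progenitors, RGC-like cells had less Nrg1 and more Nrg3 and Erbb2 than IPC-like cells. In this contrast 3 of the 5 genes tested were called, beside 25.3% of all genes (12.2% higher and 13.0% lower in RGC-like cells). Nrg3 was 8.07-fold higher (log2 3.01 ± 0.61, adjusted p = 0.00225), Erbb2 4.80-fold higher (2.26 ± 0.63, adjusted p = 0.0231) and Nrg1 2.53-fold lower (-1.34 ± 0.46, adjusted p = 0.0462). The Nrg1 call was lost with predicted doublets kept (adjusted p = 0.0922) and the Erbb2 call when a random part of each cell's UMIs made the classes and the rest was tested (0.141). Without cells holding non-neural marker UMIs, Nrg1 was at -1.58 (adjusted p = 0.0168) and Erbb2 at 2.55 (0.00934). Erbb4 at -2.00 ± 0.73 was not called (adjusted p = 0.058, from 0.0297 to 1 over 12 alternatives, with a call in 3 of them), and without the cells with non-neural marker UMIs the difference was -0.34 (0.734). Nrg2 was at 1.21 (adjusted p = 0.264), and at 2.02 without those cells.

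Against excitatory neuron-like cells, RGC-like cells had less Nrg2 and Nrg3 and more Erbb2. Here 3 of 5 genes were called, beside 55.1% of all genes (25.7% higher, 29.4% lower). Nrg3 was 5.25-fold lower (log2 -2.39 ± 0.58, adjusted p = 0.00296, and 0.0583 with doublets kept), and Nrg2 was 4.31-fold lower (-2.11 ± 0.53, adjusted p = 0.00375). Erbb2 had 136 UMIs in RGC-like and 3 in excitatory neuron-like cells, a ratio of levels of 85.4 with a counting interval from 28.6 to 419 (adjusted p = 5.72e-05). Nrg1 did not pass (log2 -0.13 ± 0.45, adjusted p = 0.821), although its unscaled CPM was higher in RGC-like cells of both libraries, and neither did Erbb4 (-0.47 ± 0.71, adjusted p = 0.599). Erbb4 was called lower in RGC-like cells with a minimum of 500 genes per cell (-2.76, adjusted p = 0.0251).

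IPC-like cells differed from excitatory neuron-like cells most in Nrg3. The count was 4 of 5 genes, beside 46.0% of all genes (22.2% higher, 23.8% lower). Nrg3 was 42.3-fold lower in IPC-like cells (log2 -5.40 ± 0.67, adjusted p = 1.49e-05), a change that 2.95% of all genes matched in size. Nrg2 was 9.95-fold lower (-3.31 ± 0.66, adjusted p = 0.000834, and -4.10 without cells holding non-neural marker UMIs) and Nrg1 2.30-fold higher (1.20 ± 0.46, adjusted p = 0.0441). The Nrg1 call was lost with doublets kept (0.0856) and without cells holding GABAergic marker UMIs (0.0507). Erbb2, with 15 against 3 UMIs, had a ratio of 17.2 (interval 4.86 to 92.5, adjusted p = 0.00669), a call lost with a minimum of 500 genes (0.155) or with doublets kept (0.0692). Erbb4 was at 1.53 ± 0.70 (adjusted p = 0.0902), and at -0.09 without cells holding non-neural marker UMIs.

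High Erbb4 and low Nrg1 set MGE interneuron-like cells apart from the excitatory lineage. Against excitatory neuron-like cells, 2 of 5 genes were called, beside 20.6% of all genes (6.96% higher, 13.6% lower). Erbb4 was 1264-fold higher (log2 10.30 ± 0.98, adjusted p = 4.33e-06), and 0.144% of genes differed as much. The size of this fold rests on few UMIs in excitatory neuron-like cells. They were at 95.4 and 30.3 CPM with a minimum of 500 genes, and at 95.1 and 25.1 CPM with doublets kept, and the log2 fold change was then 8.13 at its lowest. Nrg1 was 18.0-fold lower (-4.17 ± 0.52, adjusted p = 5.65e-05). Nrg3 differed by -0.09 ± 0.55 (adjusted p = 0.936) and Nrg2 by 0.65 ± 0.55 (adjusted p = 0.468).

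Against RGC-like cells all 5 genes tested were called, beside 51.3% of all genes (24.8% higher, 26.5% lower). Erbb4 was higher by a log2 fold change of 10.78 ± 0.998 (adjusted p = 8.20e-07, lowest 8.25 with doublets kept), Nrg2 by 2.76 ± 0.62 (0.0018) and Nrg3 by 2.30 ± 0.58 (0.00429, and 0.0721 with doublets kept). Nrg1 was lower (-4.03 ± 0.52, adjusted p = 1.75e-05). Erbb2 was at least 6.23-fold lower, with 0 UMIs against 136 and the same floor of 3 counts over the class in both libraries (adjusted p = 0.0042). Receptor genes thus changed in opposite directions between these classes, Erbb4 up and Erbb2 down in the interneurons.

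Against IPC-like cells 4 of 5 genes were called, beside 45.2% of all genes (20.9% higher, 24.4% lower). Erbb4 (8.78 ± 0.92, adjusted p = 4.01e-06), Nrg3 (5.31 ± 0.67, 2.11e-05) and Nrg2 (3.96 ± 0.73, 0.000503) were higher in MGE interneuron-like cells, and Nrg1 was lower (-5.37 ± 0.55, 3.28e-06). Without cells holding non-neural marker UMIs, Erbb4 was at 10.40 (1.42e-07) and Nrg2 at 4.76 (0.000144). In single libraries, with 10 CPM added, the Erbb4 difference was 7.71 in replicate 2, which held the 2 Erbb4-rich IPC-like cells, and 9.49 in replicate 4. Erbb2, with 0 against 15 UMIs, was not called (adjusted p = 0.099).

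**Figure D5:**
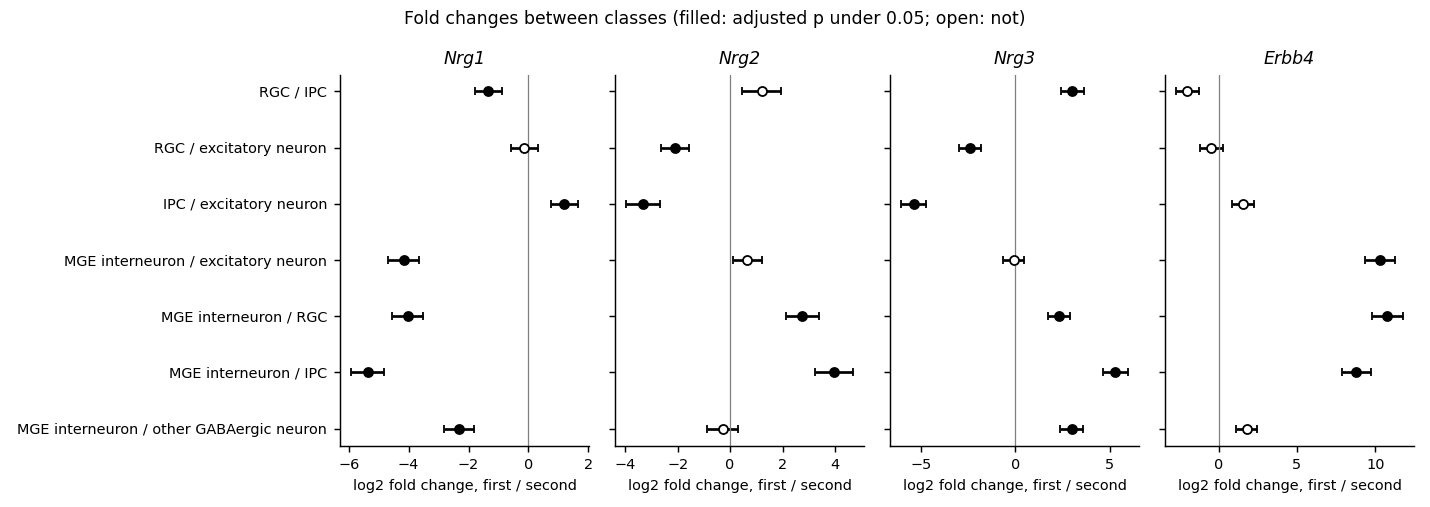
Log2 fold changes of Nrg1, Nrg2, Nrg3 and Erbb4 in 7 contrasts of cell classes from the edgeR fit, with bars of 1 standard error and filled points for an adjusted p under 0.05. Erbb4 is called in the 3 contrasts of MGE interneuron-like cells with the excitatory lineage and in no other, and Nrg3 is called in all contrasts except MGE interneuron-like against excitatory neuron-like.

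Within the GABAergic cells, the MGE class was set against all others, 29 and 161 cells of CGE interneuron-like, striatal projection neuron-like and unassigned kinds that differed in makeup between the libraries. The unassigned cells of replicate 4 included the Sst-led sub-cluster of 23 cells, at 2617 CPM of Nrg1 and 1644 CPM of Nrg3. The result was 2 of 5 genes called, beside 10.5% of all genes (3.71% higher, 6.75% lower). Erbb2, among the 5, had no UMI in either class and so could not be called. Nrg3 was higher (log2 2.99 ± 0.60, adjusted p = 0.00505, and 0.0798 with doublets kept), at 2412 and 2340 against 103 and 520 CPM. Nrg1 was lower (-2.32 ± 0.49, adjusted p = 0.0066), at 153 and 147 against 343 and 1262 CPM, a call lost when the fit held these classes alone (0.057). Erbb4 was at 18017 and 19116 against 7308 and 4524 CPM and did not pass (1.79 ± 0.67, adjusted p = 0.115, lowest 0.0452 over the alternatives).

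The study takes SST+ interneurons as the senders of signals, so MGE interneuron-like cells with at least 1 Sst UMI (23 and 26 cells) were set against those without (31 and 55 cells). The Sst-led sub-cluster of replicate 4 without a sub-class (23 cells) is not part of this contrast. Nrg3 was at 2825 and 3246 CPM in Sst-positive and 2058 and 1716 in Sst-negative cells (log2 0.67 ± 0.21). Erbb4 was at 16715 and 15946 against 19133 and 21301 CPM (-0.32 ± 0.19), in the other direction. Nrg1 moved in opposite directions in the libraries, at 141 and 318 CPM in Sst-positive and 163 and 29.1 CPM in Sst-negative cells, and Nrg2 differed by 0.40 ± 0.42. None of the 4 genes tested was called by edgeR, beside 0.314% of 7632 genes (0.249% higher, 0.0655% lower), and 1 of them, Nrg3, had an unadjusted p under 0.05 (0.0119, adjusted p = 0.329). DESeq2 called 0 of them. With the library as a block, 99 genes were called in place of 24, again none of these 4. Sst-positive cells were deeper, with medians of 25713 and 15037 UMIs against 23396 and 9006. In 1 alternative both the Sst state and the sums were taken after thinning, so the groups of cells changed as well as the depth. The Nrg3 difference was then 0.22 (adjusted p = 0.864), at 2233 and 2640 against 2497 and 1711 CPM. In these new groups the Nrg1 difference was 2.12 (unadjusted p = 0.00266, adjusted p = 0.179), against 1.23 before. It was at 167 and 510 CPM in Sst-positive and 114 and 51.9 CPM in Sst-negative cells, from 15 and 51 against 20 and 14 UMIs. When all genes with at least 1 count were tested, Nrg1 was called (1.21, adjusted p = 0.00109), on the unthinned sums in which the libraries moved in opposite directions.

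Ligand and receptor UMIs were also counted in the same thinned cells. In the MGE interneuron-like class, 45 of 53 in replicate 2 and 55 of 74 cells in replicate 4 held both Nrg3 and Erbb4, and 15 of 53 and 14 of 74 held both Nrg1 and Erbb4. Since every one of these cells had an Erbb4 UMI, both counts equal those of the ligand alone. Nrg1 and Nrg3 shared a cell in 55.9% and 51.1% of the RGC-like class, but in 11.97% and 11.4% of the IPC-like class. In the excitatory neuron-like class they did so in 55.1% and 57.4%. In IPC-like cells 17 of 17 and 23 of 24 cells with Nrg3 also held Nrg1, which 86.6% and 85.1% of all cells of the class held. In RGC-like cells these were 113 of 115 and 180 of 190, beside 94.1% and 92.3% of all cells. Among excitatory neuron-like cells with Nrg3, 234 of 314 and 336 of 451 also held Nrg1, beside 80.5% and 79.8% of the class. The lower joint share in IPC-like than in RGC-like cells thus repeats the lower share with Nrg3 there. It is no separate result on co-expression, and whether the pair departs from independence was not tested.

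Around these 6 genes, a list of 48 genes of the ERBB pathway was counted, of which 42 were tested, and the share called is given beside that over all genes. In RGC-like against IPC-like cells 5 were higher and 8 lower (31.0% called, against 25.3% of all genes, median log2 fold change -0.05), in RGC-like against excitatory neuron-like cells 10 and 17 (64.3% against 55.1%, median -0.28), and in IPC-like against excitatory neuron-like cells 10 and 12 (52.4% against 46.0%, median -0.17). MGE interneuron-like cells had 8 higher and 7 lower against excitatory neuron-like (35.7% against 20.6%, median 0.05), 14 and 12 against RGC-like (61.9% against 51.3%, median 0.28), 7 and 9 against IPC-like (38.1% against 45.2%, median 0.12) and 2 and 3 against the other GABAergic cells (11.9% against 10.5%, median 0.07). In the Sst contrast 0 of 30 tested were called by edgeR (median -0.23). Medians over all genes tested lay between -0.12 and 0.01 in these contrasts.

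By role, of 14 adaptors and kinases tested, 2 were higher and 9 lower in RGC-like than in excitatory neuron-like cells, where 55.1% of all genes were called, and 8 were higher and 3 lower in MGE interneuron-like than in RGC-like cells, where 51.3% were. Shc3, a neuronal adaptor of receptor tyrosine kinases, had 148.8 and 158.0 CPM in RGC-like and 14.3 and 9.95 CPM in IPC-like cells (log2 3.65 ± 0.28, adjusted p = 1.23e-06). Pik3r1, a regulatory subunit of phosphoinositide 3-kinase, was lower in RGC-like cells, at 18.5 and 15.2 CPM, than in IPC-like cells, at 60.1 and 96.7 (-2.24 ± 0.46, adjusted p = 0.00258). Among downstream genes, Stat5b, a transcription factor that ERBB4 can carry to the nucleus, was at 48.2 and 51.7 CPM in MGE interneuron-like and 1.13 and 0.985 in excitatory neuron-like cells (5.42 ± 0.40, adjusted p = 4.18e-07).

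Of the 8 scaffolds and partners, 3 were higher and 1 lower in RGC-like and 5 higher and 1 lower in IPC-like than in excitatory neuron-like cells, where 55.1% and 46.0% of all genes were called, and 1 was higher and 4 lower in MGE interneuron-like than in RGC-like cells, where 51.3% were. Of the 3 other EGF family ligands tested, 1 was higher and 0 lower in the last of these contrasts. The genes named were the most changed of the list in a contrast and direction. Yap1, a co-activator that can bind the intracellular part of ERBB4, was at 99.8 and 101.6 CPM in RGC-like and 2.51 and 2.34 in excitatory neuron-like cells (log2 5.11 ± 0.24, adjusted p = 1.35e-09). Dlg4, the postsynaptic scaffold PSD-95, was at 27.2 and 28.7 CPM in IPC-like and 75.5 and 83.3 in excitatory neuron-like cells (-1.74 ± 0.16, adjusted p = 1.11e-06). Hbegf, another ligand of ERBB4, was higher in MGE interneuron-like cells, at 19.3 and 13.6 CPM, than in RGC-like cells, at 1.90 and 2.06 (3.18 ± 0.43, adjusted p = 2.56e-05). Egfr, the fourth receptor of the family, had 10.8 and 6.77 CPM in IPC-like and 0.314 and 0.246 in excitatory neuron-like cells (4.61 ± 0.59, adjusted p = 3.94e-05). It had no UMI in MGE interneuron-like cells, at least 6.77-fold lower than in IPC-like cells by the same floor (adjusted p = 0.00459). Of the 4 ERBB receptor genes, Erbb4 was thus the one with more than 1 UMI in MGE interneuron-like cells.

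The genes with the most similar pattern were found by Pearson's r of log2(CPM + 10) over 44 sums of a library and cluster, among 14520 genes, as a description of sums that share libraries and depth. Nrg1 was nearest to Nkain2 (0.855) and Zfp462 (0.810), and Nrg2 to Sgsm1 (0.819), Enpp5 and Sgsm2. Nrg3 was nearest to Nrg3os (0.886), which is annotated antisense to it and may share its reads, followed by Gm20642 (0.883) and Dock3 (0.852). Erbb2 was nearest to Acsf2 (0.909), Trip6 and Pter. Erbb4 was nearest to Gm38505 (0.910), Dlx1as (0.887), antisense to the interneuron gene Dlx1, and Cntnap5c (0.881).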

How the data were processed

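Dorsal telencephalon cells of 2 WT libraries were measured with a 10x Genomics 3′ kit. The authors processed the reads with Cell Ranger (7.0.0 and mm10 per the labels), and deposited unnormalized UMI counts by gene and barcode. Cells needed at least 1000 genes and no more than 10% mitochondrial UMIs. Predicted doublets (12 and 48; 0.991% and 2.44%) were left out. Scanpy 1.11.5 was used for Leiden clustering (leidenalg 0.10.2) on 2000 variable genes, 30 components and 20 neighbours at resolution 1, leaving out the 6 genes and the pathway list (54 genes). Naming a cluster took 3 markers that were raised by a log2 ratio of 1 or more over the median cluster (10 CPM added) and detected in 25% or more of its cells. The naming rule, unlike the marker lists, was set after clusters were seen, so class names may differ from those of the study. The 6 genes and all lists were chosen with earlier results of these data known. Named genes were the 6, the most changed pathway gene per direction and contrast with the same sign in both libraries, and the 3 most similar genes each; some of these are not reported here.

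UMIs were summed per library and class (at least 10 cells in each library) and tested with edgeR 4.0.16 (quasi-likelihood, TMM, filterByExpr). Cells were never replicates. Depth was 40267872 and 49422007 UMIs, and intervals (95%, exact Poisson or Clopper-Pearson) and floors of 3 counts cover counting error only. Sums of 1 library are paired by construction: their deviations from class means correlated by 0.132 (median of 10 pairs, 0.0655 to 0.224). On simulated data of MGE interneuron-like against RGC-like cells (12973 genes), 43.3% of 2-fold and 69.1% of 4-fold changes were recovered and 0.0938% of unchanged genes called. In the Sst contrast (7281 genes) these were 28.4%, 84.6% and 0.282%. Alternatives covered filters, doublets, resolution, count splitting, scaling, DESeq2 1.42.0, the block and each library alone. Gene positions are from the RefSeq annotation of the same build.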

Additional observations from a re-analysis of the deposited data

Results flagged for a closer look

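Barcodes with fewer than 1000 genes (442 in replicate 2 and 423 in replicate 4) entered no comparison and still held UMIs of 3 of the 6 genes above the limit of 3 counts. Nrg1 had 191 and 88 UMIs there (273 and 89.9 CPM, against 3216 and 3198 CPM in retained cells). Nrg3 had 83 and 70 UMIs (119 and 71.5 against 1182 and 1100 CPM). Erbb4 had 63 and 20 UMIs (90.0 and 20.4 against 741 and 751 CPM), with at most 19 and 4 in a barcode. Nrg2, Erbb2 and Erbb3 had at most 2 UMIs in either library.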

How the results depend on the processing

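No called fold change turned direction, but values without a call did. In single libraries, with 10 CPM added, Nrg1 (0.09 and 0.15) and Erbb4 (0.11 in replicate 2) turned positive in RGC-like against excitatory neuron-like cells, as did Nrg3 (0.09 in replicate 2) in MGE interneuron-like cells when set against excitatory neuron-like ones, and Erbb4 in IPC-like against excitatory neuron-like cells turned negative (-0.08 in replicate 4). From both libraries, Erbb4 in RGC-like cells turned to 0.62 against IPC-like cells with doublets kept and to 1.67 against excitatory neuron-like cells with count splitting, and in IPC-like against excitatory neuron-like cells to -2.16 with a minimum of 500 genes. Counting each gene, contrast and alternative that used both libraries, 441 fold changes kept their side of the threshold, 10 lost a call and 8 gained one. Of single-library values, which have no test, 5 moved and 73 did not. The 73 include Nrg1 in the Sst contrast, negative in replicate 2 (-0.19) but within the spread of the libraries. The lost and gained calls are named with their contrasts above, except Nrg2 in RGC-like against IPC-like cells, called with a minimum of 500 genes (2.58, adjusted p = 0.0123) and at resolution 2 (2.87, 0.0103). For MGE interneuron-like against other GABAergic cells, 783 of 9789 genes were called with these classes alone, against 1453 of 13890. In the Sst contrast 24 genes were called, 49 with DESeq2, 283 of 16604 with all genes of at least 1 count, 5 of 2950 after thinning and 99 with the library as a replicate block, which changed no other call of the 6 genes. Of 12 pairs of a gene and a progenitor class, 1 differed between libraries by more than 1 on the log2 scale, 0 with a minimum of 500 genes, 2 with doublets kept and 0 without cells holding non-neural marker UMIs. The cause of these differences was not tested. Of 30 levels of a gene in a class, 17 exceeded 10 CPM in both libraries. Depth limits Erbb3, Erbb2 and Nrg2, with 43, 195 and 1017 UMIs.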

Other observations

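A GABAergic sub-cluster of 23 cells, all from replicate 4, was led by Sst and held markers of both MGE and CGE interneurons, so it kept no sub-class. It had 12116 CPM of Erbb4, 1644 CPM of Nrg3, 87.4 CPM of Nrg2 and 2617 CPM of Nrg1, against 147 CPM of Nrg1 in the MGE interneuron-like cells of that library. Few cells carried this Nrg1 level, since 5 of the 23 held 85.6% of its 928 UMIs, 342 of them in 1 cell, and 16 of 23 cells had a UMI. Of 2 striatal projection neuron-like sub-clusters of replicate 4, the one led by Ebf1 and Isl1 had 20.4 CPM of Erbb4 and 861 CPM of Nrg1. The one with Six3 and Drd2 among its leading genes had 795 CPM of Erbb4 and 1861 CPM of Nrg1. Of the 379 Erbb4 UMIs of this class in replicate 4, 342 were in 1 cell. With 1 library these values have no replicate check.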
